A study of Mus musculus with 12 samples.

Results

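The genes that encode collagen chains and the lysyl oxidases that cross-link them were followed across the colon of mice of 4 genotypes. Members were taken by gene symbol alone: every collagen chain symbol of the form Col-number-a-number, together with Lox and the Lox-like genes, on probe sets that carry exactly 1 symbol. This gave 48 genes, 44 collagen chains and 4 lysyl oxidases, out of 22180 genes in all. Loxl2 was not analysed here, because each of its 2 probe sets also carries another symbol. Where a gene had more than 1 probe set, the brightest stood for it.

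The groups were the double knockout (DKO, IL10-/- STING-/-), the IL-10 knockout with intact STING (IL10KO, IL10-/- STING+/+), the STING knockout with intact IL-10 (SKO, IL10+/+ STING-/-) and the wild type (WT, IL10+/+ STING+/+). Each was represented by 3 arrays of whole-colon RNA, 12 arrays in all. IL-10 is an anti-inflammatory cytokine, whose loss can lead to colitis in mice, and STING is the adaptor through which cytosolic DNA triggers interferon and inflammatory signalling. The labels do not state strain, age, sex, housing or the alleles behind the knockouts. Nor do they say whether separate animals gave the 3 samples of a genotype, and the p-values cover the spread between those samples, which may be technical.

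Collagens are extracellular proteins whose chains wind into helical trimers. Fibrillar chains such as types I, III and V form the tensile fibres of the gut wall, FACIT chains sit on the surface of those fibres, type IV chains form the basement membrane sheet under the epithelium and around vessels and muscle, and type VI chains form beaded filaments near cells. Lysyl oxidases are copper-dependent amine oxidases that act outside the cell on lysines of collagen and elastin, which then cross-link. In an inflamed gut these genes are known from tissue repair and fibrosis, in which fibroblasts and smooth muscle cells are the main producers of matrix.

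Sequences were available for the start region of 36 of the 48 members, in RefSeq's promoter table (GRCm38.p6). A pair of them is shown. The first spans the annotated starts of Col4a2 and Col4a1, chains of the basement membrane that were among the members followed below. These starts lie 21 bases apart on opposite strands. Each gene reads from its start towards the other start, so the stretch from one start to the other lies within both annotated genes. The plus strand at chr8:11312801-11312830 is given with the stretch from one annotated start to the other in capitals; the windows of these genes share 78 bases.
Col4a2 and Col4a1 starts: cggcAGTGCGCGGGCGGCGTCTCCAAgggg
The second is the promoter of Col8a1, a short-chain network collagen whose signal differed most from WT in IL10KO colon among the members for which a window could be shown. The 250 bases before its annotated start, chr16:57754738-57754987 on the minus strand, hold 4 matches to the GC box, GGGCGG or its complement CCGCCC, which are in capitals.
Col8a1: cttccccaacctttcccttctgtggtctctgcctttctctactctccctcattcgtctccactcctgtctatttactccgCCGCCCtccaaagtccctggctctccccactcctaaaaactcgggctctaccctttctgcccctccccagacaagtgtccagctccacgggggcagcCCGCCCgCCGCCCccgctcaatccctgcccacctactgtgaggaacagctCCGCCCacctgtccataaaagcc
The GC box was found in 24 of the 39 member windows, each 300 bases long, and in 35.7% of all 32851 windows of that table. Counts for the other motifs, on either strand, were 5 of 39 for TATAAA (13.6% of all windows), 13 of 39 for CCAAT (37.4%) and 1 of 39 for TGANTCA, an AP-1 element (7.81%).

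The labels were checked first on the targeted genes. Sting1 read 4.23, 4.13 and 4.34 on the log2 scale in DKO colons and 6.87, 8.09 and 7.33 in IL10KO colons. It read 4.40, 4.32 and 4.28 in SKO colons and 7.51, 6.40 and 4.56 in the libraries labelled WT. The library labelled WT replicate 3 thus read close to the STING knockouts, and over all genes it correlated best with SKO replicate 1 (r = 0.997). That library was kept under its label in each comparison with WT, and the main ones are also given without it. The Il10 probe set averaged 4.47 ± 0.13 in DKO, 4.98 ± 0.45 in IL10KO, 3.72 ± 0.09 in SKO and 3.68 ± 0.11 in WT colons (SD, n = 3 each). Every IL10-/- array lay above every IL10+/+ array. The signal thus separated the arrays by IL-10 label, but upward, so it does not check the loss of IL-10. Colonocyte markers averaged between 11.14 and 11.34 in DKO, 10.40 and 10.64 in IL10KO, 11.05 and 11.24 in SKO and 11.11 and 11.24 in WT arrays, so markers of the labelled tissue were present. Pancreatic acinar genes averaged 8.67, 11.62 and 5.01 in the WT libraries, against 4.37 to 5.0 in the other 9 arrays. WT replicates 1 and 2 thus carried acinar signal, and WT replicate 3 was the library with the doubtful Sting1 reading. No alternative for a comparison with WT left out replicates 1 and 2 together. The part of the acinar signal in those comparisons was not tested. IL10KO replicate 1 and SKO replicate 2 stood apart from their groups over all genes, and results that rest on them are also given without them.

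Loss of IL-10 with STING present raised a set of matrix genes led by Lox and by Col12a1. In IL10KO colon, 9 of 48 members (18.8%) passed the test against WT, 8 of them higher and Col20a1 lower, where 8.14% of all genes tested passed, 3.12% upward and 5.01% downward. The higher ones were Lox, Col12a1, Col8a1, Col1a1, Col18a1, Col17a1, Col4a1 and Col10a1. The test was limma's moderated test on all 12 arrays, and a gene passed where its Benjamini-Hochberg adjusted p over all 22180 genes was under 0.05. The median difference of the 48 members was 0.23 on the log2 scale, and that of all genes was 0.03. Lox, Col12a1 and Col8a1 passed under all 19 alternative settings, none of which left out WT replicates 1 and 2 together. Without the library labelled WT replicate 3, or without WT replicate 1, these 3 were the only members that passed. The count was 4 without IL10KO replicate 1 and 5 without WT replicate 2. In bulk tissue, more cells of a type and more RNA per cell cannot be told apart.

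**Figure D1:**
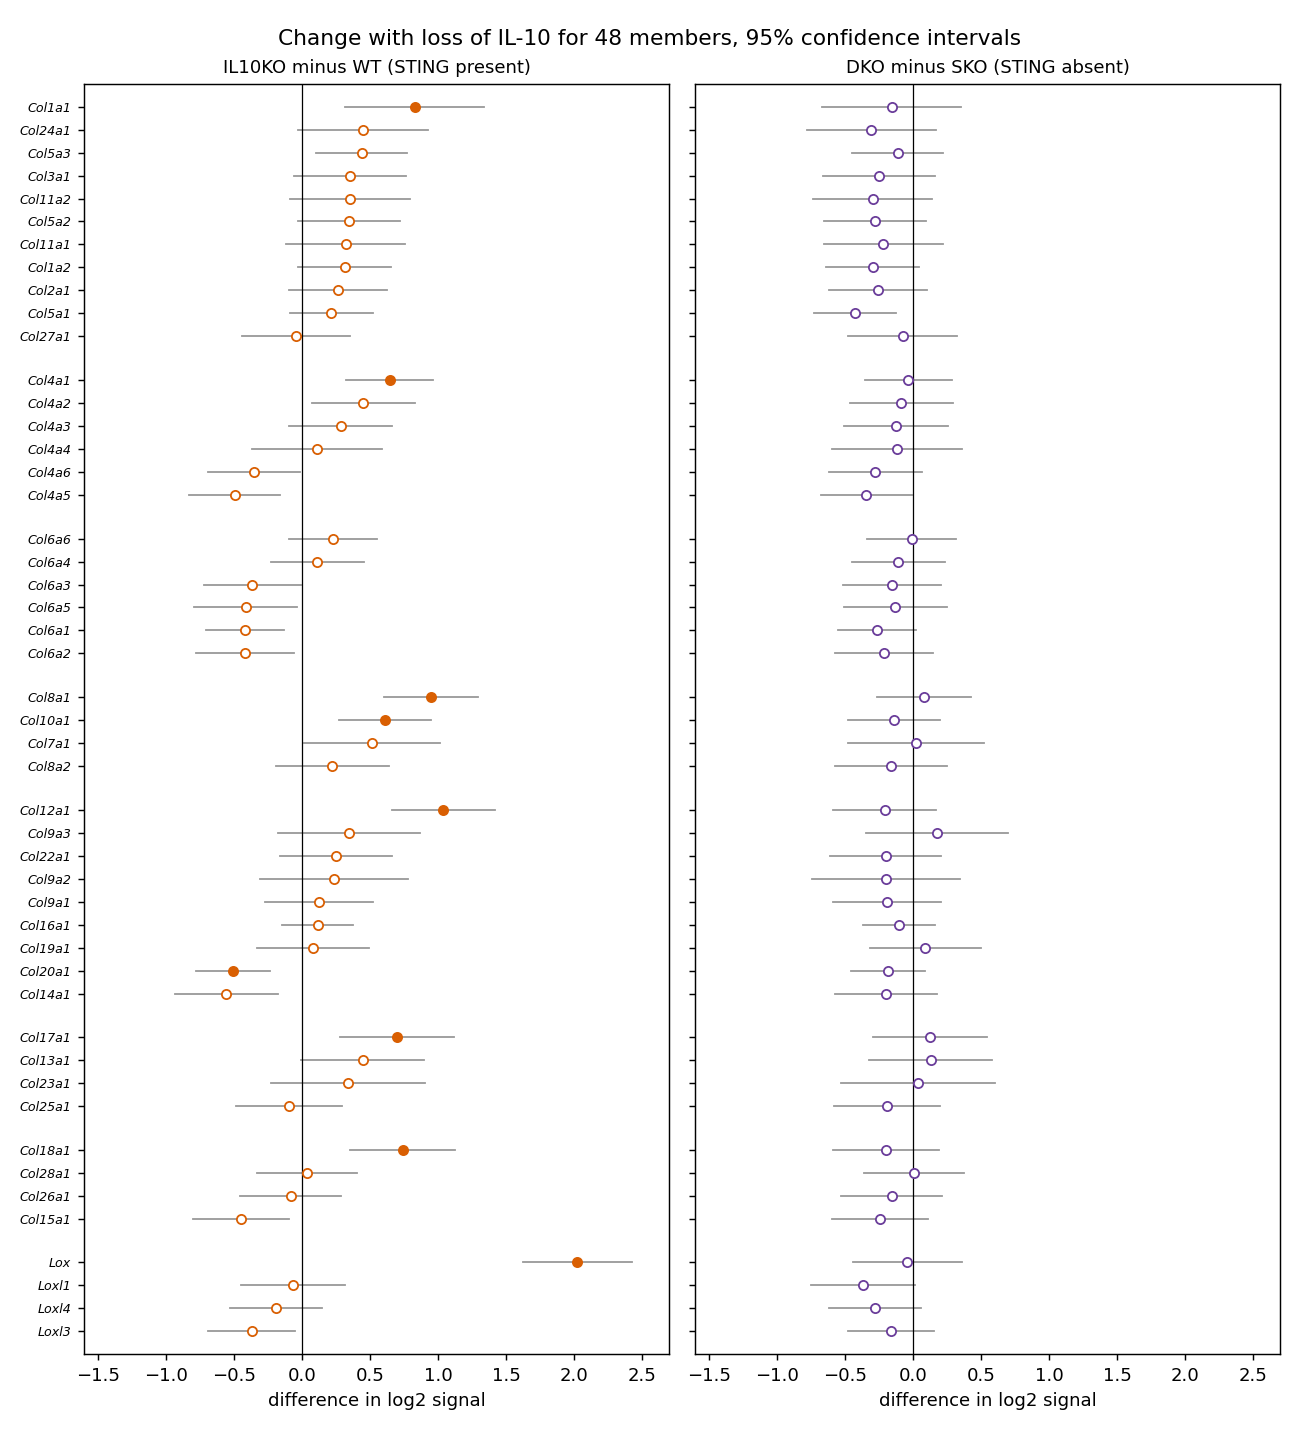
Difference in log2 signal with its 95% confidence interval for each of the 48 members, grouped by chain type from fibrillar chains at the top to lysyl oxidases at the bottom; the left panel shows IL10KO minus WT and the right panel DKO minus SKO. Filled points passed the test (adjusted p under 0.05); 9 are filled on the left, with Lox farthest to the right at 2.02, and none on the right.

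Among the cross-linking enzymes, Lox was high in all IL10KO colons, and none of the other 3 measured members passed the test. Lox signals were 6.29, 5.52 and 5.80 in DKO, 7.63, 8.04 and 7.79 in IL10KO, 5.82, 5.81 and 6.11 in SKO and 5.67, 5.82 and 5.91 in WT colons. All IL10KO arrays lay more than 1 log2 unit above every other array, and the remaining genotypes overlapped. Lox rose 4.06-fold in IL10KO over WT, a log2 difference of 2.02 ± 0.19 (SE) with adjusted p = 5.25e-05. In DKO it was 0.259 times the IL10KO level, a log2 difference of -1.95 ± 0.19 with adjusted p = 0.00012. DKO differed from SKO by -0.04 (95% interval -0.44 to 0.36) and from WT by 0.07 (-0.33 to 0.47).

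The other lysyl oxidases act on the same kind of substrate, and Loxl1 is best known for its part in elastic fibres. Loxl1 read 7.99, 7.77 and 7.79 in DKO, 7.73, 7.95 and 8.16 in IL10KO, 8.27, 8.07 and 8.32 in SKO and 7.83, 7.78 and 8.42 in WT colons. These ranges overlapped, and the IL10KO minus WT difference was -0.06 (95% interval -0.45 to 0.32), whose upper end lies below the 2.02 of Lox. Loxl3 read 6.46, 6.03 and 6.20 in DKO, 5.85, 6.21 and 5.93 in IL10KO, 6.47, 6.28 and 6.43 in SKO and 6.50, 6.25 and 6.34 in WT colons. All 3 IL10KO arrays lay below the WT arrays, by -0.37 ± 0.15 (SE), and the difference missed the threshold (adjusted p = 0.134). Loxl4 read 5.07, 5.53 and 5.48 in DKO, 5.37, 5.44 and 5.05 in IL10KO, 5.59, 5.78 and 5.53 in SKO and 5.59, 5.35 and 5.47 in WT colons. Its IL10KO minus WT difference was -0.19 (95% interval -0.52 to 0.15).

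**Figure D2:**
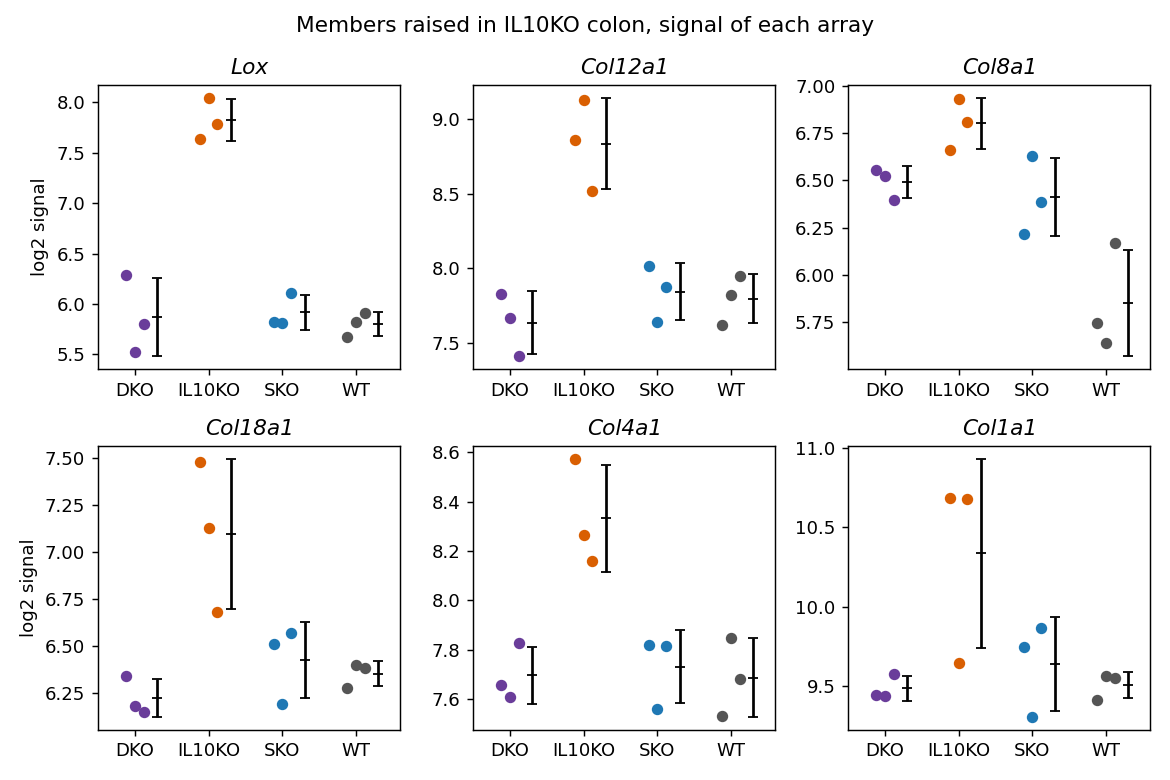
Log2 signal of Lox, Col12a1, Col8a1, Col18a1, Col4a1 and Col1a1 on each of the 12 arrays, by genotype, with the mean and SD of the 3 arrays as a tick and a bar beside the points; the vertical axes differ and do not start at 0. The IL10KO points lie above all WT points in each panel, and the DKO points lie below the IL10KO points.

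The FACIT chain Col12a1, which coats type I fibrils and is known from loaded and healing connective tissue, followed Lox. Its signals were 7.83, 7.67 and 7.41 in DKO, 8.86, 9.13 and 8.52 in IL10KO, 8.02, 7.64 and 7.88 in SKO and 7.62, 7.82 and 7.95 in WT colons. Again IL10KO stood above all other arrays, and the other genotypes overlapped. Col12a1 rose 2.06-fold in IL10KO over WT (log2 difference 1.04 ± 0.18, SE; adjusted p = 0.00369) and was 0.435 times the IL10KO level in DKO (-1.20 ± 0.18; adjusted p = 0.00198). For both Lox and Col12a1 the rise with IL-10 loss was larger with STING than without it. The difference of effects, (DKO minus SKO) minus (IL10KO minus WT), was -2.07 ± 0.26 for Lox (adjusted p = 0.00477) and -1.25 ± 0.25 for Col12a1 (adjusted p = 0.0402). These were 2 of 48 members (4.17%), where 0.645% of all genes passed that test. The Col12a1 difference of effects missed the threshold without any 1 of 8 arrays (all 3 DKO, all 3 SKO, and WT replicates 1 and 2), with adjusted p up to 0.109, whereas Lox held in every such omission.

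Of the 9 FACIT chains measured, Col12a1 passed upward and Col20a1 downward, and the median difference of the 9 was 0.13. Col20a1, a fibril-associated chain named here after its values were seen, read 5.51, 5.53 and 5.46 in DKO, 5.34, 5.37 and 5.57 in IL10KO, 5.86, 5.57 and 5.63 in SKO and 5.83, 5.99 and 5.97 in WT colons. It fell by 0.50 ± 0.13 in IL10KO (SE; adjusted p = 0.0278), and DKO lay as low as IL10KO (DKO minus IL10KO 0.07, 95% interval -0.20 to 0.35). That call ended without IL10KO replicate 1 or without any 1 WT array, with adjusted p up to 0.100. Col14a1, a FACIT chain of fibril surfaces in many soft tissues, read 6.91, 6.53 and 6.54 in DKO, 5.80, 6.18 and 6.46 in IL10KO, 6.81, 6.72 and 7.05 in SKO and 6.79, 6.58 and 6.74 in WT colons. Each IL10KO array lay below every other array, and the differences of -0.56 ± 0.18 from WT and of 0.51 ± 0.18 for DKO minus IL10KO missed the threshold (adjusted p = 0.0668 and 0.0982).

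Of 11 fibrillar chains, Col1a1 passed the test in IL10KO against WT. The difference from WT was above 0 for 10 of the 11, with a median of 0.35, where 53.6% of all genes lay above 0. In SKO against WT it was also above 0 for 10 of the 11, with a median of 0.18 and no call. For DKO minus IL10KO all 11 lay below 0, with a median of -0.43 and no call, where 45.5% of all genes lay above 0. The mean of the 11 chains was 6.77, 6.76 and 6.92 in DKO, 7.48, 7.0 and 7.32 in IL10KO, 7.0, 7.14 and 7.04 in SKO and 6.81, 6.98 and 6.96 in WT arrays, so IL10KO replicate 2 was no higher than the SKO arrays. IL10KO replicate 1, highest here, also had the highest median signal over all probe sets (5.02). SKO replicate 2, the highest SKO array here, had the next highest (4.96). The part of array-wide brightness in these means was not tested. Col1a1, the major chain of type I collagen, read 9.44, 9.43 and 9.58 in DKO, 10.68, 9.64 and 10.68 in IL10KO, 9.75, 9.30 and 9.87 in SKO and 9.41, 9.56 and 9.55 in WT colons. IL10KO replicate 2 lay within the SKO range, while the other IL10KO arrays lay clear of everything else. Col1a1 rose 1.78-fold over WT (log2 difference 0.83 ± 0.24, SE; adjusted p = 0.0476), and the DKO minus IL10KO difference of -0.85 ± 0.24 missed the threshold (adjusted p = 0.0516). Without IL10KO replicate 2 the IL10KO minus WT difference was 1.18 (adjusted p = 0.00138). The call ended in 10 of the 12 omissions of a single array, with adjusted p up to 0.154 without IL10KO replicate 1, and it held without SKO replicate 2.

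Col3a1 and Col1a2, the type III chain and the partner chain of type I collagen, had the split among IL10KO arrays that Col1a1 had. Col3a1 read 9.95, 9.96 and 9.94 in DKO, 10.53, 9.96 and 10.64 in IL10KO, 10.30, 9.89 and 10.40 in SKO and 9.81, 9.99 and 10.27 in WT colons. Col1a2 read 8.92, 9.02 and 9.18 in DKO, 9.54, 9.14 and 9.59 in IL10KO, 9.43, 9.08 and 9.50 in SKO and 9.02, 9.08 and 9.22 in WT colons. In both genes IL10KO replicate 2 and SKO replicate 2 lay below the other 2 arrays of their genotype, and IL10KO overlapped SKO. The IL10KO minus WT differences were 0.36 ± 0.19 (SE; adjusted p = 0.257) and 0.32 ± 0.16 (adjusted p = 0.224). IL10KO replicate 2, low in these chains, was the highest of all arrays for Lox, Col12a1 and Col8a1. A second, dimmer Col1a2 probe set gave an IL10KO minus WT difference of 0.64. Its DKO minus IL10KO difference was -0.09, where that of the brighter probe set was -0.38.

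Of the other fibrillar chains, Col5a3 and Col24a1 lay higher in all IL10KO arrays than in any WT array. Col5a3, a minor type V chain, differed by 0.44 ± 0.16 (SE; adjusted p = 0.0962) and Col24a1 by 0.45 ± 0.22 (adjusted p = 0.215). Col5a1 and Col5a2, the type V chains that help to set fibril diameter, differed from WT by 0.22 (adjusted p = 0.347) and 0.35 (adjusted p = 0.223). The second, dimmer probe set of Col5a1 gave 0.03. Col27a1 was the fibrillar chain whose difference lay below 0 (-0.04, 95% interval -0.44 to 0.35). Over all members, 10 of 48 had 3 IL10KO arrays above all 3 WT arrays and 7 had them below, where 14% and 16% of all genes did.

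**Figure D3:**
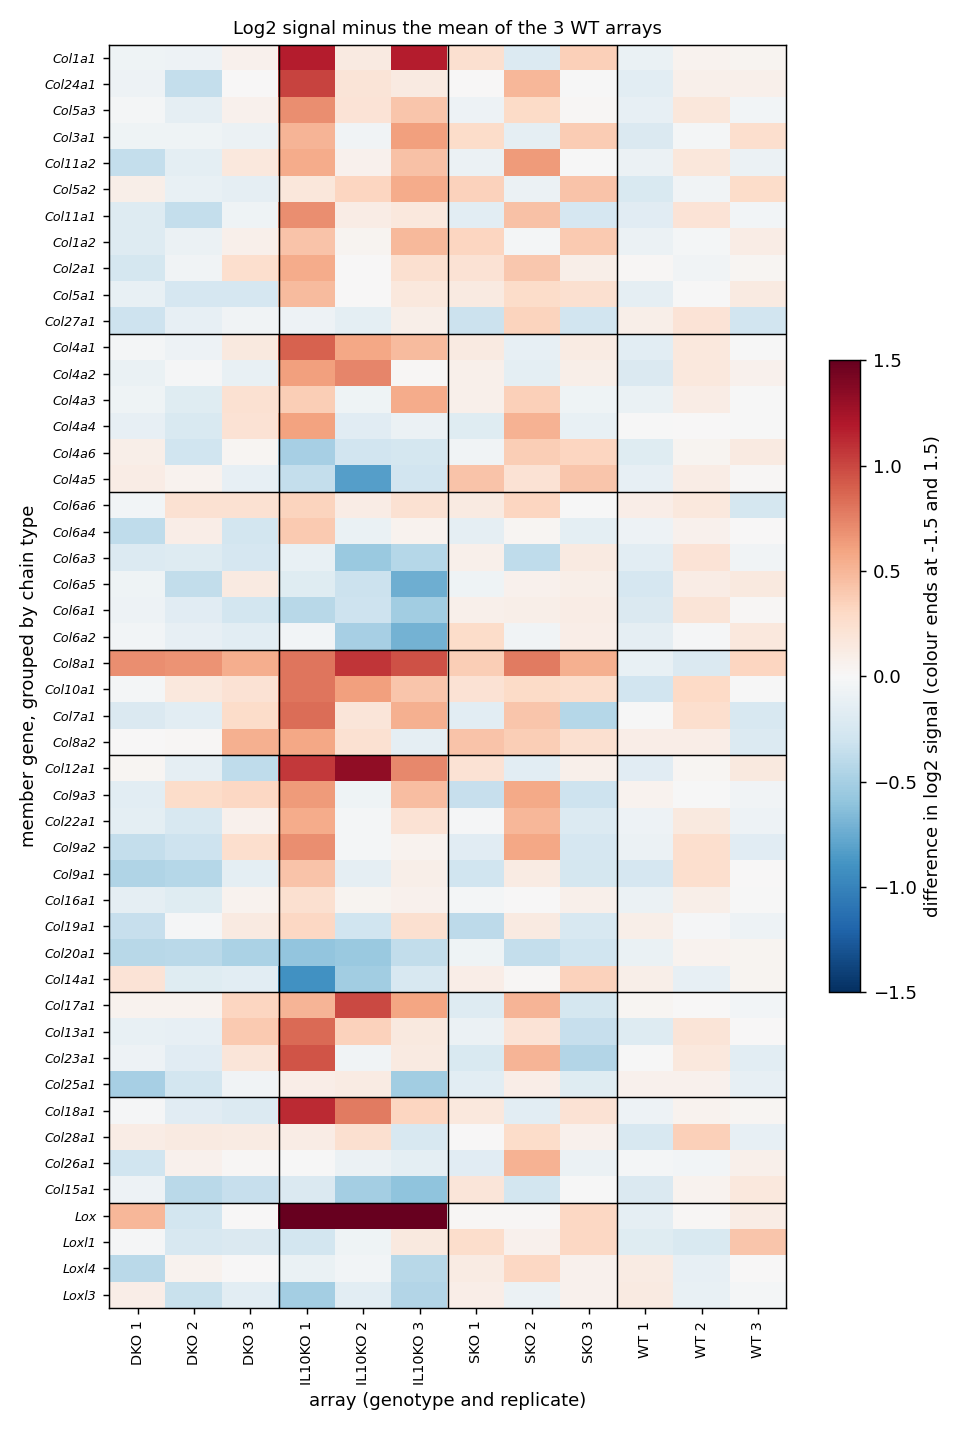
Log2 signal of each of the 48 members (rows, grouped by chain type) on each of the 12 arrays (columns, by genotype and replicate), minus the mean of the 3 WT arrays; red is higher and blue lower, and the colour ends at -1.5 and 1.5. Lox and Col12a1 are red on all 3 IL10KO arrays. Col1a1 is clearly red on IL10KO replicates 1 and 3 and only slightly above the WT mean on replicate 2. Type VI chains are mostly blue on the IL10KO arrays.

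Of 6 type IV chains, Col4a1 passed the test in IL10KO against WT, upward, and none passed downward. Col4a1, part of the basement membrane of nearly all tissues, read 7.65, 7.61 and 7.83 in DKO, 8.57, 8.26 and 8.16 in IL10KO, 7.82, 7.56 and 7.81 in SKO and 7.53, 7.85 and 7.68 in WT colons. IL10KO stood above all other arrays, with a rise of 0.65 ± 0.15 over WT (SE; adjusted p = 0.0184) and a DKO minus IL10KO difference of -0.64 ± 0.15 (adjusted p = 0.024). The first call ended without IL10KO replicate 1, WT replicate 1 or the library labelled WT replicate 3 (adjusted p up to 0.0759). The second ended without IL10KO replicate 1 or without DKO replicate 1 or 2 (up to 0.0998). Col4a2, which starts 21 bases from Col4a1 as printed above and joins it in the same trimer, read 7.43, 7.51 and 7.42 in DKO, 8.14, 8.26 and 7.55 in IL10KO, 7.61, 7.39 and 7.62 in SKO and 7.31, 7.69 and 7.59 in WT colons. IL10KO replicate 3 lay within the WT range, and the difference of 0.45 ± 0.18 missed the threshold (adjusted p = 0.123).

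Col4a5 and Col4a6, neighbours on the X chromosome whose chains occur in basement membranes of smooth muscle among other places, had lower signals in IL10KO that did not pass the test. Col4a5 read 5.85, 5.78 and 5.60 in DKO, 5.37, 4.90 and 5.44 in IL10KO, 6.16, 5.95 and 6.15 in SKO and 5.61, 5.83 and 5.74 in WT colons. Each IL10KO array lay below every other array, and the differences, -0.49 ± 0.15 from WT (SE; adjusted p = 0.0657) and 0.51 ± 0.15 for DKO minus IL10KO (adjusted p = 0.0704), missed the threshold; both passed after quantile normalization (adjusted p = 0.039 and 0.0391). Col4a6 differed from WT by -0.35 ± 0.16 (adjusted p = 0.177). Col4a3 and Col4a4, best known from kidney, ear and eye, differed by 0.29 and 0.12 (adjusted p = 0.323 and 0.772).

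No type VI chain passed the test, and 4 of 6 lay lower in IL10KO than in WT by 0.36 to 0.42 on the log2 scale. Col6a1 read 9.55, 9.45 and 9.34 in DKO, 9.21, 9.31 and 9.09 in IL10KO, 9.69, 9.71 and 9.73 in SKO and 9.41, 9.81 and 9.64 in WT colons. All IL10KO arrays lay below all others, with a difference from WT of -0.42 ± 0.13 (SE; adjusted p = 0.0676). It passed in 3 of the 19 alternatives: with a trend in the variance prior (adjusted p = 0.0425), without the dimmest genes (0.0494) and without IL10KO replicate 2 (0.0483). Its second, dimmer probe set gave a difference of 0.16. Col6a2, the neighbour of Col6a1 and its partner in the type VI trimer, read 8.35, 8.26 and 8.22 in DKO, 8.34, 7.88 and 7.67 in IL10KO, 8.66, 8.33 and 8.48 in SKO and 8.25, 8.36 and 8.54 in WT colons, and its difference was -0.42 ± 0.17 (adjusted p = 0.134; 0.0335 without IL10KO replicate 1). Col18a1, which lies 2 protein-coding genes from Col6a1, was higher in IL10KO, as described below.

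**Figure D4:**
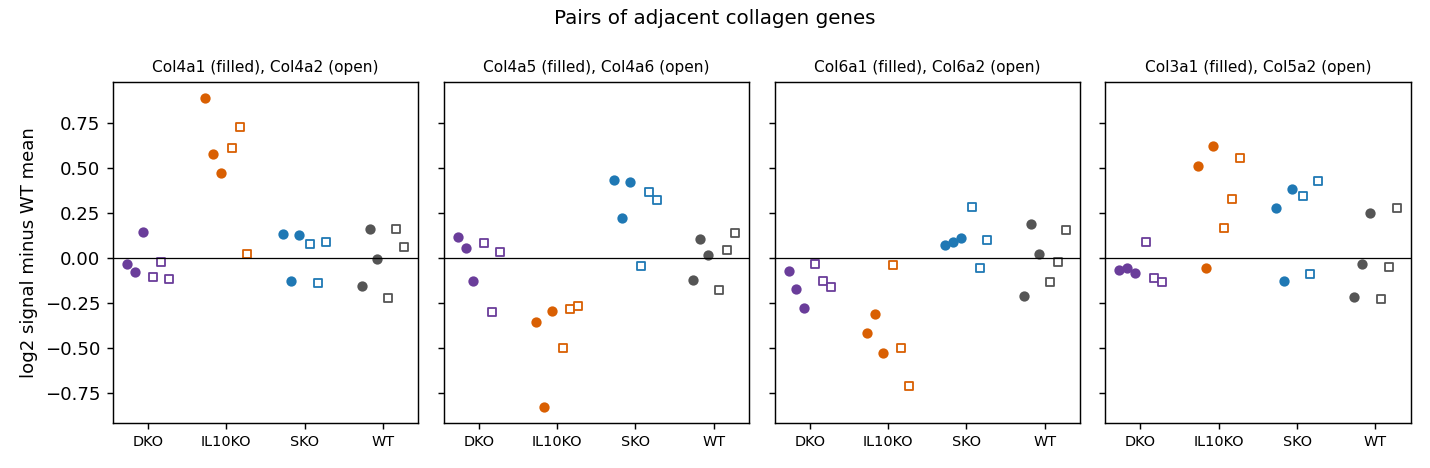
Log2 signal minus the WT mean for 4 pairs of neighbouring collagen genes, by genotype; filled circles are the first gene named in each panel and open squares the second, 1 point per array. IL10KO points lie mostly above 0 for Col4a1 with Col4a2 and for Col3a1 with Col5a2, and below 0 for Col4a5 with Col4a6 and for Col6a1 with Col6a2.

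Markers of smooth muscle were lower in IL10KO than in WT colon. Of 9 such markers 7 fell in IL10KO against WT (6 without the library labelled WT replicate 3), and 7 were higher in DKO than in IL10KO. Their mean log2 signal was 10.55, 10.47 and 10.30 in DKO, 9.50, 9.71 and 9.62 in IL10KO, 10.53, 10.40 and 10.59 in SKO and 10.32, 10.31 and 10.52 in WT arrays. The type VI mean was 6.73 to 6.78 in DKO and 6.52 to 6.86 in IL10KO arrays. In SKO and WT arrays it was 6.88 to 6.93 and 6.74 to 6.99. Enteric neuron and glia markers gave 2 of 7 lower in IL10KO against WT and 2 higher in DKO against IL10KO, with means of 5.48 to 5.69 in DKO, 5.0 to 5.10 in IL10KO, 5.57 to 5.68 in SKO and 5.45 to 5.72 in WT arrays. The part of either list in the collagen values was not tested. Fibroblast markers gave 1 of 9 higher (Thy1) and 1 lower (Fbln1) in IL10KO against WT, the lower call being absent without the library labelled WT replicate 3, and their mean lay at 7.49 to 7.79 in DKO, 7.46 to 7.80 in IL10KO, 7.81 to 7.91 in SKO and 7.61 to 7.88 in WT arrays. Endothelial markers gave 1 of 9 higher (Vwf), with means of 6.40 to 6.76 in DKO, 6.66 to 6.88 in IL10KO, 6.57 to 6.75 in SKO and 6.62 to 6.76 in WT arrays, and the Vwf call was absent without the library labelled WT replicate 3. Leukocyte markers gave 3 of 7 higher (Itgam, S100a8 and Csf3r), with means of 5.98 to 6.19 in DKO, 6.64 to 7.52 in IL10KO, 5.73 to 5.86 in SKO and 5.70 to 6.51 in WT arrays.

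Short-chain and anchoring collagens included Col8a1, for which all arrays of the 3 knockout genotypes lay above the WT arrays. Col8a1, known from vessel walls and from the cornea, read 6.55, 6.53 and 6.40 in DKO, 6.66, 6.93 and 6.81 in IL10KO, 6.22, 6.63 and 6.39 in SKO and 5.75, 5.64 and 6.17 in WT colons. The highest WT value came from the library labelled WT replicate 3. The lower values came from WT replicates 1 and 2, whose pancreatic acinar means were 8.67 and 11.62. The part of that signal in the Col8a1 differences from WT was not tested. The rise in IL10KO over WT was 1.93-fold (log2 difference 0.95 ± 0.16, SE; adjusted p = 0.00364), and 1.11 without that library (adjusted p = 0.00216). The DKO minus IL10KO difference of -0.31 (95% interval -0.65 to 0.04) missed the threshold (adjusted p = 0.254). SKO and DKO lay above WT by 0.56 (0.21 to 0.90) and 0.64 (0.29 to 0.98), with adjusted p of 1 and 0.582 over all genes. With IL10KO replicate 1, SKO replicate 2 and the library labelled WT replicate 3 left out together, DKO minus WT was 0.80 and passed (adjusted p = 0.0285).

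Col10a1, best known from cartilage that turns to bone, gave dim signals of 3.64, 3.81 and 3.88 in DKO, 4.46, 4.28 and 4.07 in IL10KO, 3.88, 3.94 and 3.93 in SKO and 3.37, 3.96 and 3.65 in WT colons. IL10KO lay above all other arrays, by 0.61 ± 0.16 over WT (SE; adjusted p = 0.0318), and the call ended without IL10KO replicate 1, WT replicate 1 or the library labelled WT replicate 3 (adjusted p up to 0.126). Col7a1, which forms the anchoring fibrils beneath stratified epithelia, differed from WT by 0.52 ± 0.23 (adjusted p = 0.174), with IL10KO arrays at 6.17, 5.52 and 5.87 and WT arrays at 5.33, 5.59 and 5.09.

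Col17a1, a transmembrane collagen of the hemidesmosome that ties basal epithelial cells to the basement membrane, was higher in IL10KO. It read 4.95, 4.94 and 5.22 in DKO, 5.41, 5.89 and 5.48 in IL10KO, 4.70, 5.40 and 4.63 in SKO and 4.92, 4.90 and 4.85 in WT colons. IL10KO lay above all other arrays, with SKO replicate 2 just below, and the difference from WT was 0.70 ± 0.19 (SE; adjusted p = 0.0426). The call ended in 10 of the 12 omissions of a single array, with adjusted p up to 0.116 without the library labelled WT replicate 3. By genotype, markers of stratified squamous epithelium moved with it, but on SKO replicate 2, with Col17a1 at 5.40, their mean was 4.55. All 7 measured were called higher in IL10KO than in WT (6 without the library labelled WT replicate 3) and 5 of 7 lower in DKO than in IL10KO, with mean log2 signals of 4.72, 4.59 and 5.62 in DKO, 5.81, 7.94 and 7.40 in IL10KO, 4.64, 4.55 and 4.49 in SKO and 4.55, 4.30 and 4.67 in WT arrays. Their part in the Col17a1 and Col7a1 values was not tested. Of the other transmembrane chains, Col13a1 differed from WT by 0.45 ± 0.21 (adjusted p = 0.194), Col23a1 by 0.34 ± 0.26 (adjusted p = 0.428) and Col25a1 by -0.10 ± 0.18 (adjusted p = 0.767).

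The multiplexin Col18a1, a basement membrane collagen whose end fragment is endostatin, rose in IL10KO, and its relative Col15a1 did not pass the test. Col18a1 read 6.34, 6.18 and 6.15 in DKO, 7.48, 7.13 and 6.68 in IL10KO, 6.51, 6.19 and 6.57 in SKO and 6.28, 6.40 and 6.38 in WT colons. IL10KO lay above all other arrays, with a rise of 0.74 ± 0.18 over WT (SE; adjusted p = 0.0243) and a DKO minus IL10KO difference of -0.87 ± 0.18 (adjusted p = 0.0139). The first call ended without IL10KO replicate 1 or without any 1 WT array (adjusted p up to 0.0775), and the second without DKO replicate 2 (0.0579). Col15a1 read 6.26, 5.94 and 6.0 in DKO, 6.12, 5.84 and 5.74 in IL10KO, 6.53, 6.07 and 6.33 in SKO and 6.13, 6.39 and 6.51 in WT colons, a difference from WT of -0.45 ± 0.16 (adjusted p = 0.106).

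Loss of STING in the IL-10 knockout lowered 4 members, Lox, Col12a1, Col18a1 and Col4a1, which is 8.33% of the 48, where 5.79% of all genes passed in DKO against IL10KO and 2.45% passed downward. No member passed upward, where 3.34% of all genes did. The member median was -0.30 and that of all genes -0.04, and 16 of 48 members (33.3%) had all DKO arrays below all IL10KO arrays, where 13.8% of all genes did, and 3 had them above, where 13.4% did. This comparison shares the IL10KO arrays with IL10KO against WT, so high IL10KO arrays enter both with opposite sign. Without IL10KO replicate 2, which read low for type I and III chains, 8 members passed, and without DKO replicate 2 Lox and Col12a1 alone did. After quantile normalization 6 members passed downward and Col4a5 upward.

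With STING absent, the loss of IL-10 left no member past the threshold. In DKO against SKO, 0 of 48 members passed limma's test, where 0.0451% of all genes did, and 2 members (4.17%) had an unadjusted p under 0.05, where 4.77% of all genes did. Col5a1 had the largest difference, -0.43 (95% interval -0.73 to -0.12), with signals of 7.41, 7.27 and 7.27 in DKO and 7.66, 7.80 and 7.76 in SKO colons and adjusted p = 0.823. Loxl1 differed by -0.37 (-0.75 to 0.01). No member had 3 DKO arrays above all SKO arrays and 6 had them below, where 4.87% and 6.28% of all genes did. Of the 48 differences 8 (16.7%) lay above 0, where 43.5% of all genes did, and their median was -0.16, with -0.03 for all genes. For Lox the interval of -0.44 to 0.36 lies well below the 2.02 seen with STING present, and for Col12a1 it was -0.59 to 0.17 against a rise of 1.04.

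STING loss alone and the double knockout against WT gave 0 called members each. In SKO against WT no gene of the table passed limma's test (0%), and 2 members (4.17%) had an unadjusted p under 0.05, where 2.05% of all genes did. The difference was above 0 for 36 of 48 members (75%), where 53.3% of all genes were, with Col8a1 (0.56) and Col4a5 (0.36, 95% interval 0.02 to 0.69) the farthest. In DKO against WT 0.0451% of all genes passed, and 2 members (4.17%) had an unadjusted p under 0.05, where 2.92% of all genes did. DKO arrays all lay above all WT arrays for Col17a1 and Col8a1 and below for Col20a1 and Col6a3, where 4.34% and 5.06% of all genes did. The library labelled WT replicate 3 enters both comparisons, and no member passed in either without it.

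The genes that make, trim and remove collagen were described beside the chains. Of 17 measured genes for modification and folding inside the cell, none rose and P3h2 fell in IL10KO. P3h2, a prolyl 3-hydroxylase that acts on collagen chains, read 7.62, 7.25 and 7.12 in DKO, 6.02, 6.68 and 6.41 in IL10KO, 7.66, 7.28 and 7.66 in SKO and 7.36, 7.18 and 7.64 in WT colons. Its IL10KO minus WT difference was -1.02 ± 0.20 (SE, adjusted p = 0.00785) and its DKO minus IL10KO difference 0.96 ± 0.20 (adjusted p = 0.0131). The first call ended with IL10KO replicate 1, SKO replicate 2 and the library labelled WT replicate 3 left out together (adjusted p = 0.0529). The second ended without DKO replicate 1 (adjusted p = 0.0725).

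Among 16 genes of procollagen processing and fibril assembly, none rose and 2 fell in IL10KO against WT. Postn, periostin, a matricellular protein that binds collagen and Bmp1, read 10.50, 10.39 and 10.28 in DKO, 9.60, 10.04 and 9.74 in IL10KO, 10.69, 10.71 and 10.82 in SKO and 10.57, 10.69 and 10.69 in WT colons. It fell by 0.86 ± 0.14 (SE; adjusted p = 0.00267) in IL10KO and was higher in DKO than in IL10KO by 0.59 ± 0.14 (adjusted p = 0.0227), a call that ended in 4 of the 12 single omissions (adjusted p up to 0.100 without DKO replicate 1). Tnxb, tenascin-X, which binds fibrillar collagen, fell by 0.53 ± 0.15 (adjusted p = 0.0432), a call that ended in 10 of the 12 single omissions (up to 0.139 without IL10KO replicate 1). Bmp1, the procollagen C-proteinase, which also activates Lox, read 7.24, 6.56 and 6.82 in DKO and 7.30, 7.53 and 7.89 in IL10KO colons. It was lower in DKO by -0.70 ± 0.18 (adjusted p = 0.0386), and the call ended in 8 of the 12 single omissions (up to 0.160 without DKO replicate 2).

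Of 13 measured receptors and turnover genes, 4 rose and 1 fell in IL10KO against WT, and 4 were lower and 1 higher in DKO against IL10KO. Mmp13, a collagenase of fibrillar collagen, read 5.38, 5.15 and 5.43 in DKO, 8.69, 10.49 and 8.89 in IL10KO, 5.40, 4.8 and 5.18 in SKO and 5.75, 5.41 and 5.27 in WT colons. Its differences were 3.88 ± 0.35 for IL10KO minus WT (SE; adjusted p = 4.82e-05) and -4.04 ± 0.35 for DKO minus IL10KO (adjusted p = 5.58e-05). IL10KO replicate 2, the highest for Mmp13, was the IL10KO array with the lowest type I and III chains. Mmp8, the neutrophil collagenase, differed by 2.25 ± 0.36 (adjusted p = 0.00274) and -2.14 ± 0.36 (adjusted p = 0.00433).

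The membrane-bound Mmp14 and the gelatinase Mmp2 that it activates rose in IL10KO by 0.63 ± 0.17 (SE; adjusted p = 0.0336) and 0.62 ± 0.17 (adjusted p = 0.0362), calls that each ended in 6 of the 12 single omissions (up to 0.128 and 0.126, both without WT replicate 2). Mmp2 was lower in DKO than in IL10KO by -0.88 ± 0.17 (adjusted p = 0.00922). Ctsk, the collagen-cleaving protease cathepsin K, was lower there by -0.84 ± 0.18 (adjusted p = 0.0169), a call that ended in 3 of the 12 single omissions (up to 0.0807 without DKO replicate 2). Itga11, a subunit of a fibroblast receptor for fibrillar collagen, fell by 0.82 ± 0.16 in IL10KO (adjusted p = 0.00881) and was higher in DKO than in IL10KO by 0.70 ± 0.16 (adjusted p = 0.0235); the second call ended in 2 of the 12 single omissions (up to 0.108 without DKO replicate 1).

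Of 12 genes of TGF-beta signalling, the pathway best known for inducing collagen genes, 1 passed. Ltbp2, a latent-TGF-beta-binding protein homologue of elastic fibres, read 4.79, 5.10 and 4.94 in DKO, 5.92, 5.83 and 5.60 in IL10KO, 4.91, 4.92 and 4.81 in SKO and 5.14, 5.04 and 4.87 in WT colons. IL10KO stood above all other arrays, by 0.77 ± 0.14 over WT (SE; adjusted p = 0.00471), and DKO minus IL10KO was -0.84 ± 0.14 (adjusted p = 0.00339). The 12 genes had a median IL10KO minus WT difference of 0.11, beside 0.03 for all genes.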

How the data were processed

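RNA from mouse colon was hybridised to Affymetrix arrays after labelling 300 ng of total RNA with the WT PLUS kit, per the labels' protocols. The deposited table holds log2 signals per probe set (41345 probe sets, 12 arrays), for which the submitters' processing notes name Affymetrix Expression Console 1.3.1.187. The log2 scale was inferred from the value range. The sources used here do not name the background correction, the normalization between arrays or the build. No detection calls were used, so dim signals are not read as absence, and precision is limited by the 3 arrays per genotype.

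The platform annotation named the probe sets (23521 with 1 symbol, 1814 with several, 16010 unnamed here), and Entrez identifiers placed 21994 of the symbols in a table of mouse genes (GRCm38.p6). Each of 22180 genes was represented by its brightest probe set; 1082 had more than 1. The deposited log2 values were fitted without further normalization in limma 3.58.1 (R 4.3.3), with a mean per genotype over all 12 arrays, 8 residual and 5.56 prior degrees of freedom, 2-sided tests and Benjamini-Hochberg adjustment over all genes. The script was tested on simulated data. The fits were repeated after median centring, after quantile normalization, without the dimmest genes (a share of 0.333), with probe sets of a gene averaged, with a variance prior that follows the signal, on only the genotypes compared, without each array in turn, and without 3 arrays that stood apart. Replicates were numbered in sample order and pair nothing.

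Named members were the 8 largest called differences per comparison, the 6 brightest members and the lysyl oxidases; other members are named as examples of their chain type. From each pathway list up to 4 called genes per comparison were named. Members, lists and alternatives were chosen with earlier results of these data known.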

Additional observations from a re-analysis of the deposited data

Results flagged for a closer look

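The effect of IL-10 loss differed between STING genotypes for 2 members, by limma's test of the difference itself. For Lox, (DKO minus SKO) minus (IL10KO minus WT) was -2.07 on the log2 scale (adjusted p = 0.00477), with effects of -0.04 without STING and 2.02 with it. For Col12a1 it was -1.25 (adjusted p = 0.0402), with effects of -0.21 without STING and 1.04 with it. The IL10KO and the WT arrays did not overlap for either gene, and the DKO and SKO arrays did.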

How the results depend on the processing

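No called difference of a named gene changed direction under the alternatives run. IL10KO against WT had 9 members called; 4 were called with IL10KO replicate 1, SKO replicate 2 and the library labelled WT replicate 3 left out together, and 3 when only the genotypes compared were fitted; leaving out 1 array gave 3 to 10. For DKO against IL10KO (4 called) quantile normalization gave 7 and fitting only the genotypes compared 2, and leaving out 1 array gave 2 to 8. DKO against WT (0) gave 1, Col8a1, with the 3 arrays left out together. The difference of effects (2) gave 1 after median centring and 4 with the 3 arrays left out, and 1 to 3 with 1 array left out. DKO against SKO and SKO against WT gave 0 under every setting. Where counts moved, the cause was not tested. Leaving out arrays also left fewer of them, and that part was not separated. Lox held in every setting in which it was tested, Col12a1 in all 19 for both pairwise comparisons and in 9 of 18 for the difference of effects (adjusted p 0.0135 to 0.109), and Col8a1 in all 19 for IL10KO against WT. Median centring changed the share of higher genes among all genes called in DKO against IL10KO to 69.2%, from 57.6%. No paired analysis was possible because replicate numbers follow sample order and pair no arrays. Dim probe sets such as that of Col10a1 limit what can be resolved.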
